A study of Mus musculus with 11 samples.

Results

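The genes examined here encode the Toll-like receptors (TLRs), the NOD-like receptors (NLRs) and the proteins that sit directly beside them in innate sensing. The rule that defines the members uses gene symbols and no measured value, but this group of genes was picked with earlier results of these data known. It takes every TLR, NLRC, NLRP, NLRX, NOD and NAIP gene of the deposited table, the interleukin-1 receptor-associated kinases (Irak1 to Irak4), the adaptors Myd88, Tirap, Ticam1 and Ticam2, the co-receptors Cd14 and Ly96, the inflammasome genes Pycard and Aim2, and the regulators Tollip and Sigirr. The rule found 56 of 43346 genes, and 43 of the 56 had enough reads to be tested, among 19863 tested genes in all. The samples were polyadenylated colon RNA of male Swiss Webster mice, 5 of them germ-free and 6 humanized. All 11 mice were bred germ-free, kept in isolators and fed the same autoclaved diet. At 4 to 5 weeks of age the humanized mice received 300 μL of stool suspension from a single human donor, followed by 4 to 5 weeks of adaptation. The germ-free mice received none, and both groups were studied at 8 to 10 weeks of age. With 1 donor, the response to other human microbiotas was not measured.

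TLRs are membrane receptors for microbial molecules. Those at the cell surface bind bacterial lipoproteins, lipopolysaccharide and flagellin, and those in endosomes bind nucleic acids and protozoan profilin. Most signal through the adaptor MyD88 and the IRAK kinases to NF-κB, and some through the adaptor TRIF (Ticam1) to interferon genes. NLRs sense microbial products and cell damage in the cytosol. NOD1 and NOD2 bind peptidoglycan fragments, and NAIP proteins bind flagellin or parts of bacterial secretion needles and assemble with NLRC4 into an inflammasome, a complex that activates caspase-1. In the intestine these receptors are found in epithelial cells as well as in macrophages and dendritic cells of the lamina propria.

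Between 49097005 and 64148538 reads per germ-free mouse and between 39125290 and 54219854 per humanized mouse had been counted on genes. Expression is given as RPKM, which divides the reads of a gene by its deposited length and by the size of the TMM-normalized library. Log2-fold changes (LFC) compare humanized with germ-free mice, so that a positive value is higher in humanized mice, and their standard errors (SE) come from edgeR's quasi-likelihood fit. Genes were called at FDR below 0.01 by edgeR's exact test with Benjamini–Hochberg correction over all tested genes. Marker genes of several cell types differed between the groups. All 9 smooth muscle markers, 5 of 7 fibroblast markers and 7 of 8 markers of enteric glia and neurons were lower in humanized mice, whereas 5 of 8 T cell markers and 4 of 8 B cell and plasma cell markers were higher. Of 11 epithelial markers 2 were higher and none lower (median LFC 0.21), and of 7 goblet cell markers 3 were higher and none lower (median LFC 0.46). Of 7 endothelial markers 1 was lower (median LFC −0.91). Of 10 macrophage markers 1 was higher and 2 were lower (median LFC −0.51), and of 6 dendritic cell markers 1 was lower. The quasi-likelihood test called 0 goblet cell markers higher and 0 macrophage and 0 dendritic cell markers lower. It called 4 smooth muscle, 4 fibroblast and 6 glial and neuronal markers lower, and 5 T cell and 3 B cell and plasma cell markers higher. Of the 9 neutrophil and monocyte markers, S100a8, S100a9, Ly6g, Mpo and Elane had too few reads to be tested, with Elane at 0 in every mouse. The other 4 (Csf3r, Cxcr2, Ly6c2 and Ccr2) had a median LFC of 0.63, and none was called or had an unadjusted p below 0.05 in the exact test, while DESeq2 called none and had 2 higher at that p. Humanized mouse 5 stood apart, with the lowest sum of its group for macrophage, dendritic cell, smooth muscle, fibroblast and endothelial markers. It was also the lowest of its group for glial and neuronal, B cell and plasma cell, and neutrophil and monocyte markers. In bulk tissue, fewer cells of a type and less RNA per cell cannot be told apart.

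Humanized mice had more RNA of 11 sensing genes and less of 1. The genes that rose were Tlr2, Naip1, Cd14, Pycard, Nlrp6, Nlrc4, Tlr1, Ticam1, Aim2, Irak4 and Naip2, and the gene that fell was Tlr4. Fold changes of the 11 ranged from 1.23 for Naip2 to 2.68 for Tlr2. The 11 made up 25.6% of the 43 tested members, beside 9.20% of all tested genes called higher, and the single lower call made up 2.33%, beside 10.1% of all tested genes called lower. The median LFC of the 43 members was 0.14, beside 0.0084 over all tested genes. Without humanized mice 5 and 6, 9 members were called higher and 1 lower. The shares above belong to the fit on all mice, and those over all tested genes without these mice are not given here.

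**Figure D1:**
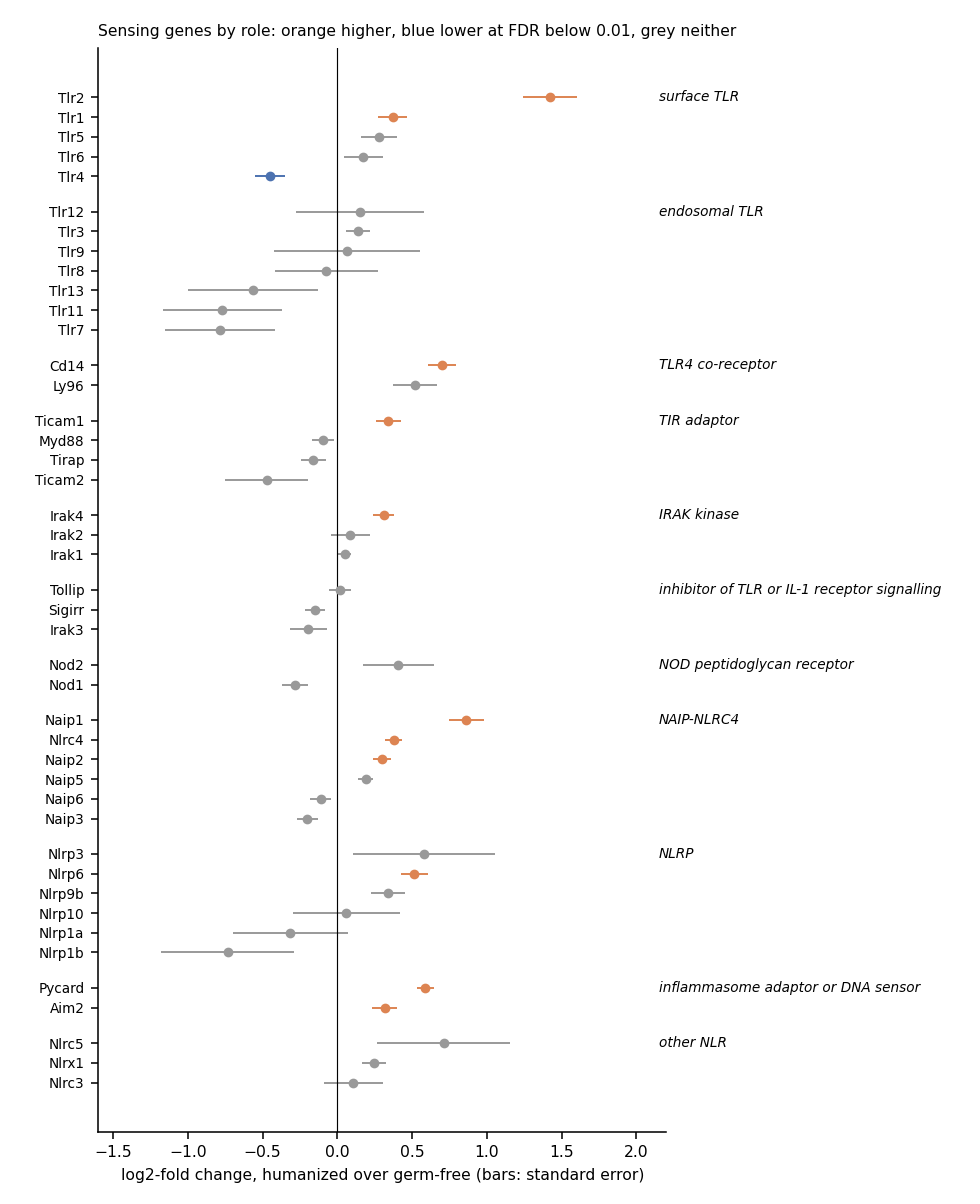
LFC of the 43 tested sensing genes (horizontal axis, humanized over germ-free, bars are standard errors), grouped by role, with the 11 called higher in orange, the 1 called lower in blue and the other 31 in grey. Tlr2 lies farthest to the right at 1.42, and no endosomal TLR, NOD or inhibitor gene is coloured.

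Separation of the individual mice gave a similar number of genes. In 11 members every humanized mouse lay above every germ-free mouse, which is 25.6% of those tested, beside 8.67% of all tested genes. In 2 members, Tlr4 and Sigirr, every humanized mouse lay below every germ-free mouse, which is 4.65%, beside 9.73% of all tested genes. Of the 12 called genes only Aim2 and Irak4 overlapped between the groups. Naip5, Ly96 and Sigirr did not overlap but missed the FDR threshold.

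The balance of higher and lower calls was similar under 2 other scalings, with 11 higher and 1 lower by RLE, beside 1788 and 2009 of all 19863 tested genes, and 10 and 1 by upper quartile, beside 7.87% and 10.9% of them. It moved under another pair. With total counts in place of TMM, 5 members were called higher and 7 lower, or 11.6% and 16.3%, beside 3.89% and 18.2% of all tested genes. With libraries scaled to the 11 epithelial markers 4 were higher and 6 lower, or 9.30% and 14.0%, beside 2.84% and 16.0% of all tested genes. Total counts and epithelial scaling moved the median LFC of all tested genes to −0.18 and −0.23. Tlr2, Naip1, Cd14 and Pycard were called higher and Tlr4 lower under both, and Nlrp6 was called higher with total counts (LFC 0.32) but not with epithelial scaling (LFC 0.26, FDR = 0.0119, exact test with Benjamini–Hochberg correction). The LFC of Tlr2 was 1.23 and 1.16, and relative to these medians that of Naip1 was 0.84 and 0.83 and that of Tlr4 −0.47 and −0.46. The other members called lower were Myd88, Tirap, Nod1, Sigirr and Naip3 with both, and Naip6 with total counts.

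**Figure D2:**
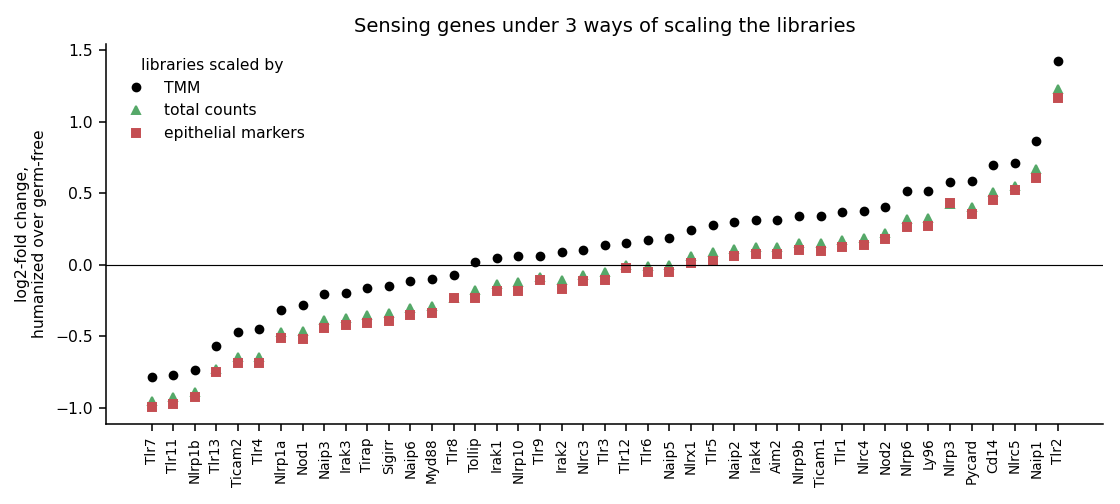
LFC of each tested sensing gene (vertical axis, humanized over germ-free) with libraries scaled by TMM (black circles), total counts (green triangles) or the 11 epithelial markers (red squares), genes ordered by the TMM value. Each gene shifts down by a similar amount, Tlr2, Naip1, Cd14 and Pycard stay above 0, and Tlr4 stays below 0.

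Among the surface receptors, Tlr2 encodes the receptor for bacterial lipoproteins, which works in pairs with TLR1 or TLR6. The deposited table places it at chr3:83836272-83841767 of mm10. Its RPKM values in the 5 germ-free mice were 21.8, 16.9, 17.0, 19.5 and 15.2, and the 6 humanized mice ranged from 31.9 to 74.3 with a median of 46.7. The lowest humanized mouse stood well above the highest germ-free mouse. The mean rose from 18.1 ± 2.60 (SD, n = 5) to 48.5 ± 14.2 (SD, n = 6), with an LFC of 1.42 (SE 0.18, FDR = 2.71e-12, exact test with Benjamini–Hochberg correction), the largest LFC of any tested member. No 101-base window, the length of a read, of the longest Tlr2 transcript in GENCODE was shared with another gene.

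The bases just upstream of Tlr2 are shown because they hold a match to the κB motif, the site that NF-κB binds. The stretch is chr3:83841768-83841858 of GRCm38.p6 (RefSeq), on the minus strand, and the capitals mark 2 overlapping κB matches covering 11 bases, which end 3 bases before the deposited edge of the gene.
Tlr2: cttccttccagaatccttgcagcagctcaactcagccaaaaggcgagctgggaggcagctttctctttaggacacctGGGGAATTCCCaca
RefSeq places the start of the gene 159 bases inside that edge. Upstream windows of 250 bases were read from RefSeq for 44 members, which had 56 windows because a gene can have several starts. A κB match on either strand was found in at least 1 window of 5 members (Tlr2, Tlr3, Naip5, Nlrp3 and Irak1), which is 11.4% of the 44, beside 8.23% of all 27025 genes with a window and 7.25% of single windows. Counted by gene in the same way, a STAT motif (TTCNNNGAA) was found in 7 members, or 15.9%, beside 8.13% of all genes, and the interferon-response core (GAAA, any 2 bases, GAAA) in 3 members, or 6.82%, beside 3.46% of all genes. Windows of Cd14 and Tlr4 were not read, and of the other called genes Tlr2 was the only one with a κB match. A match of letters is a description, and binding was not measured.

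Tlr1 encodes a partner of TLR2. The germ-free mice had 21.9, 21.5, 18.7, 19.2 and 20.7 RPKM and the humanized mice ranged from 23.3 to 33.4 with a median of 24.6, without overlap. The LFC was 0.37 (SE 0.096, FDR = 0.00348, exact test). The Tlr1 call was lost without germ-free mouse 3 (FDR = 0.0221), 4 (FDR = 0.0199) or 5 (FDR = 0.0116) or humanized mouse 2 (FDR = 0.0154), all by the exact test, with total counts and epithelial scaling, and by the quasi-likelihood test on all mice (FDR = 0.0137). Of the 101-base windows of Tlr1, 8.75% also occurred in the neighbouring paralog Tlr6. Tlr6, the other partner of TLR2, was scarcer at 1.73 ± 0.170 RPKM in germ-free and 1.96 ± 0.293 in humanized mice, with an LFC of 0.17 under TMM and −0.0089 with total counts (FDR = 0.476 under TMM, exact test).

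Tlr4, the receptor for lipopolysaccharide, went the other way. Germ-free mice had 6.21, 6.57, 6.71, 6.49 and 7.22 RPKM, and humanized mice ranged from 3.87 to 5.96 with a median of 4.83. All humanized mice lay below all germ-free mice. The LFC was −0.45 (SE 0.099, FDR = 0.000597, exact test), and Tlr4 was called lower whichever single mouse was left out and with TMM, total counts and epithelial scaling. Smooth muscle, fibroblast and glial and neuronal markers were lower in the same mice, and their part in the Tlr4 result was not tested. Tlr5, the flagellin receptor, had 2.81 ± 0.404 RPKM in germ-free and 3.41 ± 0.513 in humanized mice and was not called (LFC 0.28, SE 0.12, FDR = 0.135, exact test).

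Cd14, which hands lipopolysaccharide and lipoproteins to the TLRs, was among the most abundant members. Germ-free mice had 38.8, 37.1, 41.5, 36.0 and 44.5 RPKM and humanized mice ranged from 50.9 to 72.8 with a median of 64.6. The groups did not overlap, and the LFC was 0.70 (SE 0.091, FDR = 3.59e-10, exact test). Ly96 encodes MD-2, the lipopolysaccharide-binding partner of TLR4. It had 1.80 ± 0.180 RPKM in germ-free and 2.57 ± 0.408 in humanized mice, from 79 to 151 reads per mouse across both groups, and its groups did not overlap. With an LFC of 0.52 it was not called (SE 0.15, FDR = 0.021, exact test), although it was without humanized mouse 3 (FDR = 0.00985) and with DESeq2 (FDR = 0.00606). Cd14 was called higher and Tlr4 lower with TMM, total counts and epithelial scaling.

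In ratios of RPKM within a mouse the scaling of the library cancels. Tlr2 exceeded Tlr4 by at most 3.51 times in germ-free mice and by 7.49 to 12.5 times in humanized mice. The ratio of Tlr2 to Tlr1 was 0.734 to 1.01 in germ-free mice and 1.32 to 2.23 in humanized mice, with Tlr2 above Tlr1 in every humanized mouse. Tlr2 made up 32.0% to 39.6% of the summed RPKM of the 5 surface TLR genes in germ-free mice and 49.0% to 62.1% in humanized mice. A ratio shows that 2 genes changed unequally, and these ratios were not tested.

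**Figure D3:**
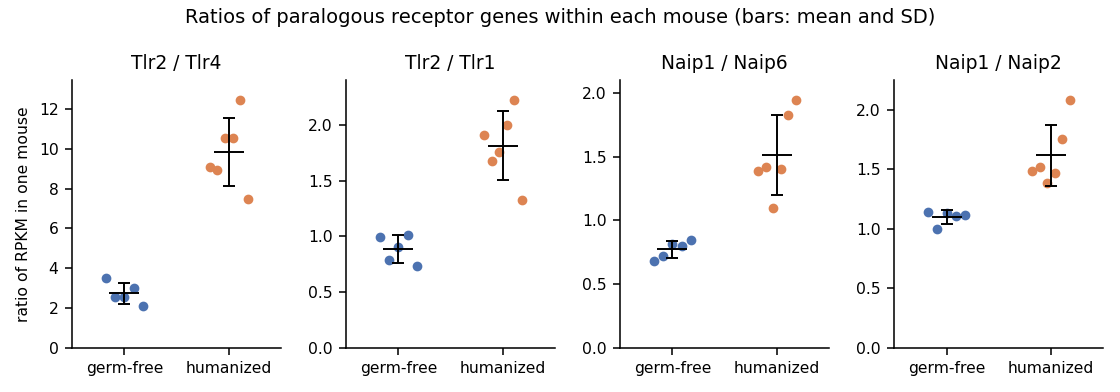
Ratio of the RPKM of 2 receptor genes within each mouse (vertical axes, points are the 5 germ-free mice in blue and the 6 humanized mice in orange, bars are mean and SD). In each panel all humanized mice lie above all germ-free mice, for example 7.49 to 12.5 against at most 3.51 for Tlr2 over Tlr4.

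None of the 7 endosomal TLR genes was called by the exact test, the quasi-likelihood test or DESeq2, and 1 of them (Tlr7) had an unadjusted p below 0.05 in the exact test. Tlr3, the receptor for double-stranded RNA, was the abundant one, at 10.1 ± 0.697 RPKM in germ-free and 11.1 ± 1.20 in humanized mice (LFC 0.14 under TMM and −0.050 with total counts). The other 6 genes (Tlr7, Tlr8, Tlr9, Tlr11, Tlr12 and Tlr13) had mean values between 0.266 and 0.672 RPKM in germ-free mice, where single genes had 45 to 188 reads per mouse. Tlr7, a receptor for single-stranded RNA, had 0.558 ± 0.109 RPKM in germ-free and 0.324 ± 0.179 in humanized mice (LFC −0.79, SE 0.37, FDR = 0.112, exact test). Tlr11, a profilin receptor, had 0.520 ± 0.0971 and 0.305 ± 0.172 RPKM (LFC −0.77, SE 0.40, FDR = 0.152, exact test). Tlr9, the receptor for unmethylated CpG DNA, had 0.266 ± 0.0506 and 0.278 ± 0.210 RPKM, and its LFC of 0.066 under TMM was −0.087 with total counts. Tlr13, a receptor for bacterial ribosomal RNA, had 0.614 ± 0.0646 and 0.416 ± 0.252 RPKM (LFC −0.56, SE 0.43, FDR = 0.382, exact test). Tlr8 and Tlr12 had LFC values of −0.073 and 0.15 with standard errors of 0.34 and 0.43.

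These 6 genes varied widely among humanized mice. Their coefficient of variation in that group lay between 52.4% for Tlr12 and 75.5% for Tlr9, beside a median of 15.3% over the 43 members and 16.5% over all tested genes, and other scarce members such as Nlrp3 (69.4%) and Nlrp1b (76.4%) varied as much. Humanized mouse 5 had the lowest value of its group for all 6, at 8.39% to 44.3% of the germ-free mean, and the other humanized mice ranged from 20.8% to 226%. Germ-free mice stayed between 79.2% and 132%. The summed dendritic cell markers of humanized mouse 5 were at 18.7% of the germ-free mean, its macrophage markers at 54.9%, its smooth muscle markers at 7.79% and its endothelial markers at 17.1%. The part of these cell types in the endosomal TLR values was not tested. Humanized mouse 5 also had the highest value of its group for 7 of the 12 called members, Tlr2, Tlr1, Tlr4, Cd14, Irak4, Naip2 and Nlrc4.

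**Figure D4:**
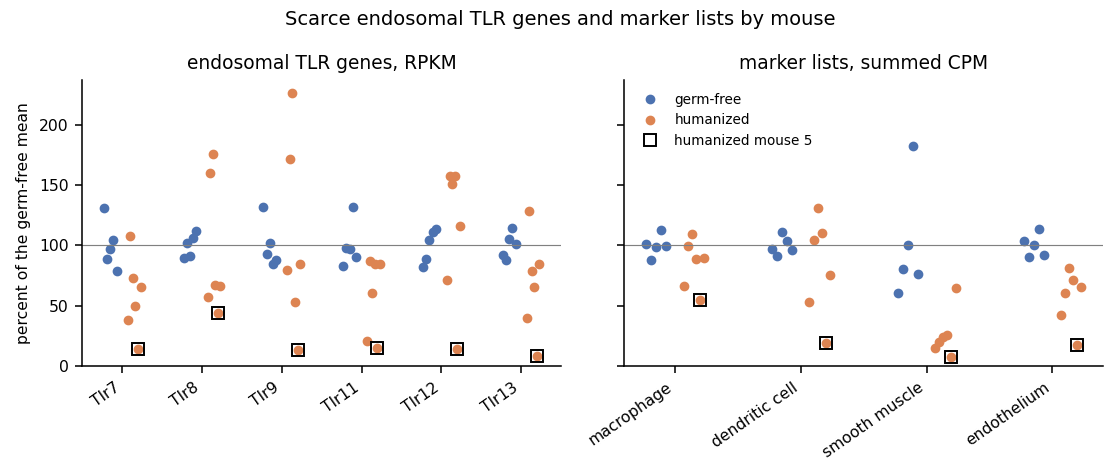
Level in each mouse as a percentage of the germ-free mean (vertical axis), for the 6 scarce endosomal TLR genes in RPKM on the left and for 4 marker lists in summed CPM on the right, germ-free mice in blue, humanized mice in orange and humanized mouse 5 boxed. Humanized mouse 5 is the lowest humanized point for each gene (8.39% to 44.3%) and each of these marker lists.

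Of the 4 adaptors with a Toll/interleukin-1 receptor domain, only Ticam1 was called. Ticam1 encodes TRIF, the adaptor of TLR3 and of endosomal TLR4. Germ-free mice had 9.59, 11.7, 11.7, 10.7 and 11.7 RPKM and humanized mice ranged from 11.9 to 15.6 with a median of 14.3. The groups were separate by a narrow margin, and the LFC was 0.34 (SE 0.084, FDR = 0.00305, exact test). The Ticam1 call was lost without germ-free mouse 1 (FDR = 0.0184) or 4 (FDR = 0.0172) or humanized mouse 1 (FDR = 0.0123) or 6 (FDR = 0.0124) or without humanized mice 5 and 6 together (FDR = 0.0256), all by the exact test, with total counts and epithelial scaling, and by the quasi-likelihood test on all mice (FDR = 0.0104). Myd88, the adaptor of most TLRs, had 14.2 ± 0.986 RPKM in germ-free and 13.3 ± 1.28 in humanized mice (LFC −0.098, SE 0.073, FDR = 0.451, exact test). Tirap, which links MyD88 to TLR2 and TLR4, had 5.06 ± 0.334 and 4.52 ± 0.496 RPKM (LFC −0.16, FDR = 0.254, exact test). Myd88 and Tirap were called lower with total counts (LFC −0.29 and −0.35) and with epithelial scaling (LFC −0.34 and −0.40). Ticam2 encodes the bridging adaptor between TLR4 and TRIF and was near the limit of the test, with 11 to 51 reads per mouse and an LFC of −0.47 (SE 0.28, FDR = 0.225, exact test). Of its 4104 windows of 101 bases, 738 also occurred in Tmed7 transcripts.

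Irak4, the kinase recruited first to MyD88, was called higher. Germ-free mice had 8.23, 10.0, 9.43, 10.3 and 9.36 RPKM and humanized mice ranged from 10.2 to 12.6 with a median of 11.9, so the groups overlapped at their edges. The LFC was 0.31 (SE 0.070, FDR = 0.0016, exact test), and the Irak4 call was lost without germ-free mouse 1 (FDR = 0.0106, exact test) and with total counts and epithelial scaling. Twf1, on the opposite strand, overlaps 7.87% of the exonic bases of Irak4 in GENCODE, and the library kit does not mark strand. Opposite-strand genes also overlap exons of uncalled members, among them Myd88 (11.3%) and Nlrx1 (11.9%). Irak1, the substrate of IRAK4, varied little, from 15.2 to 15.7 RPKM in germ-free mice and from 14.7 to 16.8 in humanized mice (LFC 0.048 under TMM and −0.14 with total counts). Irak2 ranged from 9.87 to 11.1 RPKM in germ-free and from 8.43 to 14.7 in humanized mice (LFC 0.087 under TMM, −0.10 with total counts and −0.014 without humanized mouse 5).

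None of the 3 inhibitors was called by the exact test, the quasi-likelihood test or DESeq2, and none had an unadjusted p below 0.05 in these tests. Sigirr, a decoy-like receptor that restrains TLR and interleukin-1 signalling in the gut epithelium, had 17.9 to 19.7 RPKM in germ-free mice and 13.8 to 17.8 in humanized mice without overlap, with an LFC of −0.15 (SE 0.068, FDR = 0.191, exact test). It was called lower with total counts (FDR = 0.00165) and with epithelial scaling (FDR = 0.00372), both by the exact test. Irak3 encodes IRAK-M, an inactive kinase that blocks IRAK signalling, and had 2.75 ± 0.197 and 2.41 ± 0.422 RPKM (LFC −0.19, FDR = 0.375, exact test). Tollip, which binds IRAK1 and dampens its activation, had 21.3 ± 0.261 RPKM in germ-free and 21.5 ± 2.62 in humanized mice, and its LFC of 0.017 under TMM was −0.17 with total counts. The SD of Tollip was 1.23% of the mean among germ-free mice and 12.2% among humanized mice.

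With TMM neither peptidoglycan receptor was called by the exact test or the quasi-likelihood test, nor by DESeq2 with its own size factors, and 1 of the 2 (Nod1) had an unadjusted p below 0.05. Nod1 had 5.27 ± 0.489 RPKM in germ-free and 4.33 ± 0.439 in humanized mice (LFC −0.28, SE 0.087, FDR = 0.031, exact test), and was called lower with total counts (LFC −0.46, FDR = 0.00196) and epithelial scaling (LFC −0.52, FDR = 0.00728). Nod2 had 1.04 ± 0.329 and 1.38 ± 0.372 RPKM (LFC 0.41, SE 0.24, FDR = 0.254, exact test). Both genes overlapped between the groups, and no test compared the one with the other.

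**Figure D5:**
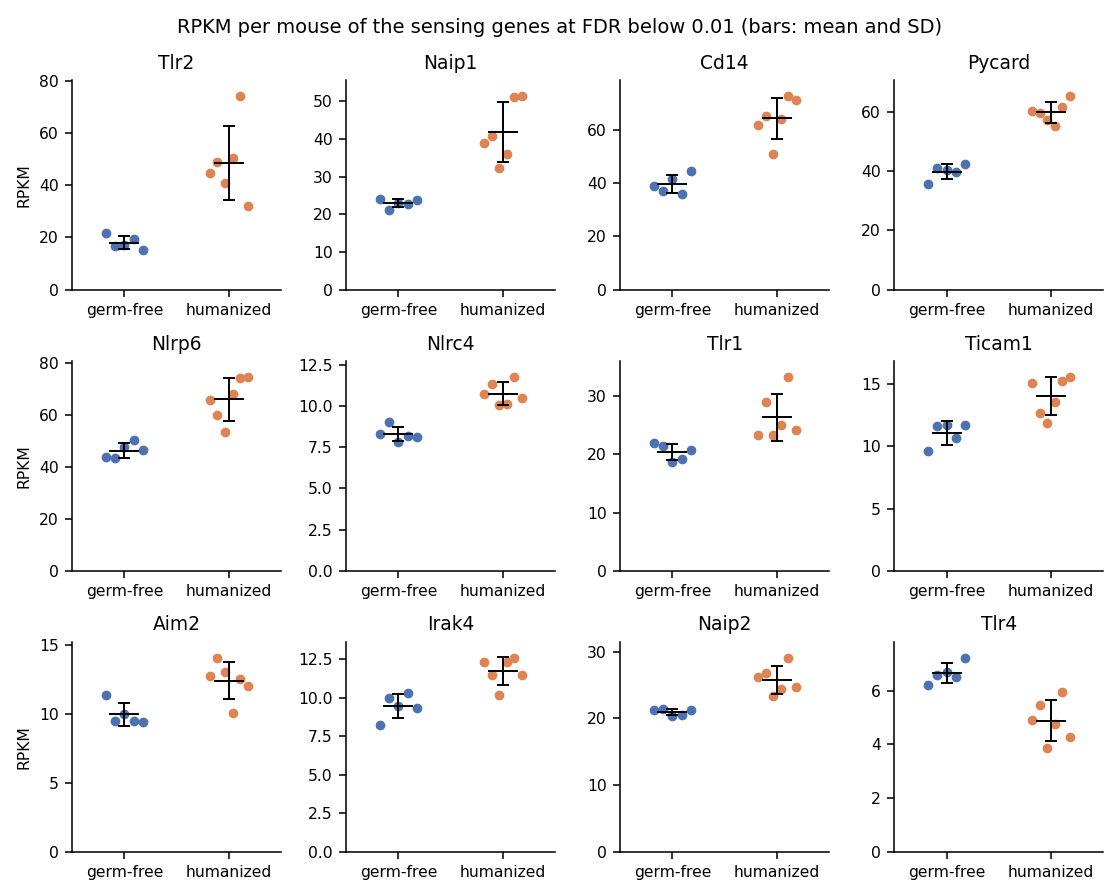
RPKM in each mouse (vertical axes start at 0) for the 12 called sensing genes, with the 5 germ-free mice in blue, the 6 humanized mice in orange, and mean and SD as bars. The groups are separate in 10 panels and overlap in Aim2 and Irak4, and Tlr4 is the only gene with lower values in humanized mice.

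The NAIP genes stand in a row on chromosome 13, in the order Naip2, Naip5, Naip6, Naip3 and Naip1 between 100144063 and 100446406 of mm10. Naip1 and Naip2, whose proteins recognize the needle and the inner rod of bacterial type III secretion systems, were called higher. Naip5 and Naip6, whose proteins recognize flagellin, and Naip3, annotated as a pseudogene in GENCODE, were not, and differences between these genes in their response were not tested. Nlrc4, which encodes the partner of all NAIP proteins, was called higher.

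Naip1 had 24.1, 21.3, 23.1, 22.6 and 23.8 RPKM in germ-free mice and ranged from 32.4 to 51.5 with a median of 40.0 in humanized mice. The gap between the groups was wider than the spread of the germ-free mice. Its LFC was 0.86 (SE 0.12, FDR = 2.61e-10, exact test). Naip2 had 21.2, 21.4, 20.4, 20.5 and 21.3 RPKM in germ-free mice and ranged from 23.3 to 29.1 with a median of 25.5 in humanized mice. The coefficient of variation in germ-free mice was 2.25%, and no humanized mouse reached down to them. The LFC of Naip2 was 0.30 (SE 0.060, FDR = 0.000505, exact test), and 0.11 with total counts and 0.060 with epithelial scaling, where it was not called.

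Nlrc4 had 8.29, 9.02, 7.84, 8.20 and 8.14 RPKM in germ-free mice and ranged from 10.1 to 11.8 with a median of 10.6 in humanized mice, without overlap. Its LFC was 0.38 (SE 0.058, FDR = 1.44e-05, exact test), and 0.19 with total counts and 0.14 with epithelial scaling, where it was not called. Naip5 ranged from 17.2 to 18.9 RPKM in germ-free and from 19.7 to 22.0 in humanized mice, without overlap. Its LFC of 0.19 missed the threshold (SE 0.048, FDR = 0.0165, exact test), passed it with DESeq2 (FDR = 0.00144), and was −0.048 with epithelial scaling. Naip6 had 30.0 ± 3.06 and 27.7 ± 1.46 RPKM (LFC −0.11, FDR = 0.33, exact test) and Naip3 had 13.0 ± 1.26 and 11.3 ± 0.776 RPKM (LFC −0.20, FDR = 0.0567, exact test). With total counts Naip6 and Naip3 were called lower (LFC −0.30 and −0.39), and with epithelial scaling Naip3 was (LFC −0.44).

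The most abundant NAIP gene differed between the groups. Naip6 was above Naip1 in all 5 germ-free mice, with a ratio of Naip1 to Naip6 of 0.683 to 0.848, and below it in all 6 humanized mice, with a ratio of 1.10 to 1.94. Naip1 made up 20.6% to 23.1% of the summed RPKM of the 5 NAIP genes in germ-free mice and 27.8% to 38.3% in humanized mice. Its ratio to Naip2 went from between 0.995 and 1.14 to between 1.39 and 2.08. These ratios were not tested. NAIP genes share sequence, and the reads of one can be counted on another. Of the 101-base windows of the longest transcript, 13.4% of Naip1, 4.36% of Naip2, 15.9% of Naip5, 6.08% of Naip6 and 28.8% of Naip3 also occurred in another gene. Values of this family are uncertain for that reason, and how many reads were counted on the wrong gene was not measured.

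The stretches upstream of Naip1, Naip2 and Naip5 are shown because these were the NAIP genes whose groups did not overlap, a choice made after their values were seen. Each runs from 120 to 11 bases before the RefSeq start, 110 bases on the minus strand of GRCm38.p6, at chr13:100452875-100452984 for Naip1, chr13:100202133-100202242 for Naip2 and chr13:100247347-100247456 for Naip5. The deposited genes end at 100446406 for Naip1, 100202092 for Naip2 and 100246323 for Naip5. The stretches therefore do not border the counted genes, and the one for Naip1 lies farthest from its gene. The capitals mark runs of 11 and 10 bases present in all 3.
Naip1: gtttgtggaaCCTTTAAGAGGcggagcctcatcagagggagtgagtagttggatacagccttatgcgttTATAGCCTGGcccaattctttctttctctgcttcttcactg
Naip2: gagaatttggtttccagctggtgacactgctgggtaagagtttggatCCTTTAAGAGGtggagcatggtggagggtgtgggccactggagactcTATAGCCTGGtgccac
Naip5: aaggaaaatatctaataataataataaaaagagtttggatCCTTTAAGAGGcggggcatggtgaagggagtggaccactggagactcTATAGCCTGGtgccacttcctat
The runs were found by searching for stretches of at least 10 bases that these 3 genes share, so their presence in the 3 is no finding. Neither run was found in the 250-base window read for Naip6, at 100316617 to 100316866. That window lies inside the deposited gene, which ends at 100317674, and so gives no reading of the bases upstream of the counted gene. In gapped alignments of the 250-base windows, identity as a share of aligned columns was 56.9% between Naip2 and Naip5. It was 52.8% between Naip1 and Naip2, and 51.2% between Naip1 and Naip5. Identity between windows of unrelated genes was not measured. The Naip6 window inside the gene had 49.1% identity with Naip2, 47.0% with Naip1 and 44.5% with Naip5, which is no measure of upstream similarity.

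Nlrp6 was the most abundant sensing gene in both groups. It encodes an inflammasome sensor of the intestinal epithelium with roles in mucus secretion and antiviral defence. Germ-free mice had 43.8, 43.6, 47.5, 50.3 and 46.4 RPKM and humanized mice ranged from 53.4 to 74.8 with a median of 67.0, without overlap. The LFC was 0.51 (SE 0.090, FDR = 4.7e-06, exact test), and the mean of humanized mice lay at the 95.2 percentile of all tested genes. The summed goblet cell markers ranged from 7571 to 11039 CPM in germ-free and from 11430 to 15906 CPM in humanized mice, and their part in the Nlrp6 result was not tested.

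Pycard encodes ASC, the adaptor that joins sensors such as NLRP6 and AIM2 to caspase-1. Germ-free mice had 35.7, 40.9, 40.5, 39.7 and 42.5 RPKM and humanized mice ranged from 55.2 to 65.4 with a median of 59.9. The groups were far apart relative to their spread, which was 6.34% of the mean in germ-free and 5.87% in humanized mice, and the LFC was 0.59 (SE 0.059, FDR = 2.60e-13, exact test), the lowest FDR of any member. An antisense gene, Gm45205, overlaps 12.8% of the exonic bases of Pycard in GENCODE, and the library kit does not mark strand, so reads of the pair cannot be told apart there. Aim2, the sensor of cytosolic DNA, had 11.4, 9.50, 9.96, 9.50 and 9.41 RPKM in germ-free mice and ranged from 10.0 to 14.1 with a median of 12.6 in humanized mice. Germ-free mouse 1 lay inside the humanized range. The LFC of Aim2 was 0.32 (SE 0.083, FDR = 0.00585, exact test), and its call was lost without 8 of the 11 single mice, with FDR values from 0.0117 without humanized mouse 6 to 0.0291 without germ-free mouse 4, as well as in most other alternatives.

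No other NLRP gene was called. Nlrp9b, a sensor of viral RNA in intestinal epithelium, had 5.24 ± 0.452 RPKM in germ-free and 6.64 ± 1.11 in humanized mice (LFC 0.34, SE 0.11, FDR = 0.0349, exact test) and was called without humanized mouse 5 (FDR = 0.00475). Nlrp3, the sensor of many signs of cell damage, had 6 to 52 reads per mouse (LFC 0.58, SE 0.47, FDR = 0.425, exact test). Nlrp1a and its paralog Nlrp1b, a sensor of bacterial proteases, had 2 to 65 reads per mouse, with LFC values of −0.31 and −0.73 that were not called, although Nlrp1b was called lower without humanized mouse 3 (LFC −1.26, FDR = 0.00407). Nlrp10 had 30 to 135 reads per mouse and an LFC of 0.060. The remaining 13 NLRP members were not tested: Nlrp2, Nlrp4a to Nlrp4g, Nlrp5, Nlrp9a, Nlrp9c, Nlrp12 and Nlrp14. The highest count in any mouse was 8, for Nlrp9a, and Nlrp4a, Nlrp4b, Nlrp4d, Nlrp4e and Nlrp14 were at 0 in all 11 mice.

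Nlrx1, a mitochondrial NLR that dampens antiviral signalling, had 3.39 ± 0.355 RPKM in germ-free and 4.02 ± 0.177 in humanized mice and was not called (LFC 0.25, SE 0.079, FDR = 0.0683, exact test). Nlrc5, the transactivator of MHC class I genes, had 0.289 ± 0.0747 RPKM in germ-free mice, whereas the humanized mice ranged from 0.116 in mouse 5 to 0.877 in mouse 3 (LFC 0.71, SE 0.44, FDR = 0.262, exact test). Nlrc3, an inhibitory NLR, had 0.406 ± 0.0657 and 0.436 ± 0.133 RPKM (LFC 0.11 under TMM, −0.068 with total counts and −0.084 without humanized mouse 3).

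Single-gene exact permutation tests over all splits of the 11 mice, on log2 CPM, gave two-sided p values from 0.00216, the smallest that 5 mice against 6 allow, to 0.0108 for the 12 called members. The uncalled members Naip5 (p = 0.00216), Ly96 (p = 0.00649), Sigirr (p = 0.00649) and Nlrx1 (p = 0.00866) lay in the same range of this exact permutation test. The summed epithelial markers ranged from 7702 to 10479 CPM in germ-free and from 8806 to 11998 CPM in humanized mice, overlapping, and the summed macrophage markers from 188 to 242 CPM and from 118 to 234 CPM. The part of cell composition in the calls was not tested beyond the epithelial scaling given above.

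The genes around the receptors were described with 6 lists holding 95 genes, of which 93 were tested. Of these, 17 were higher, 5 lower and 71 neither, beside the same 9.20% and 10.1% of all tested genes. With total counts the split was 10 higher and 19 lower, beside 3.89% and 18.2% of all tested genes. With epithelial scaling it was 7 and 17, beside 2.84% and 16.0% of all tested genes. Leaving out humanized mouse 5 raised the number of lower calls to 11. The share of all tested genes called lower without that mouse is not given here, so the rise cannot be read as particular to these lists.

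Of the 11 partners of the inflammasome 6 were higher and none lower (median LFC 0.47). None was lower at an unadjusted p below 0.05 either. DESeq2 called 7 higher and the quasi-likelihood test 4. Il18, a cytokine matured by caspase-1, rose from 7.98 ± 0.478 to 29.1 ± 6.79 RPKM (LFC 1.86, SE 0.15, FDR = 1.23e-23, exact test). Casp1 itself rose from 119 ± 7.44 to 165 ± 24.3 RPKM (LFC 0.47, FDR = 0.000166), and Casp4, the mouse caspase-11 that binds lipopolysaccharide, from 8.18 ± 0.780 to 14.4 ± 2.98 RPKM (LFC 0.81, FDR = 3.49e-07). Panx1, a membrane channel, had an LFC of 0.50. Il1b and Mefv, which encodes the sensor pyrin, rose from low levels, with 0.274 and 0.151 RPKM in germ-free mice and LFC values of 1.86 and 1.66.

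Of the 19 feedback inhibitors 5 were higher and none lower by the exact test, although 3 were lower at an unadjusted p below 0.05 and DESeq2 called 1 lower. The quasi-likelihood test also called 5 higher. Zc3h12a, which encodes the RNase Regnase-1, rose from 6.31 ± 0.477 to 19.9 ± 3.93 RPKM (LFC 1.65, SE 0.13, FDR = 1.22e-29, exact test), and Nfkbiz, which encodes a nuclear regulator of NF-κB, from 7.31 ± 1.42 to 18.8 ± 3.02 RPKM (LFC 1.36, FDR = 1.85e-17). Tnip3, Tax1bp1 and Socs3 had LFC values of 1.79, 0.66 and 0.62.

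The signal relay between receptors and NF-κB held 4 higher and 1 lower call among 32 genes, beside 9.20% and 10.1% of all tested genes. The quasi-likelihood test called 3 of the relay genes higher and 1 lower. Birc3 and Xiap, ubiquitin ligases used by NOD signalling, had LFC values of 0.38 and 0.34, the kinase gene Ikbke 0.28 and the ubiquitin-conjugating cofactor Ube2v1 0.23, and the ligase gene Peli2 fell with an LFC of −0.41. Of 12 accessory and trafficking genes, Hsp90b1, the chaperone of TLRs, rose (LFC 0.53) and Slc15a1, an apical peptide carrier that can bring bacterial peptides into the epithelium, fell from 11.1 ± 2.89 to 3.91 ± 2.05 RPKM (LFC −1.50, SE 0.29, FDR = 8.85e-06, exact test). The quasi-likelihood test called 0 of the 12 accessory and trafficking genes higher and 1 lower. Of 12 other nucleic acid sensors only Zbp1 was called, with an LFC of 1.33. Of 7 tested genes of the interleukin-1 receptor family, which share the MyD88 and IRAK relay, Il1r1 (LFC −0.49), Il1rl2 (LFC −1.29) and Il18rap (LFC −1.10) fell and none rose. At an unadjusted p below 0.05, 1 was higher in the exact test and none in DESeq2. The quasi-likelihood test called 2 lower. In the same mice 5 of 7 fibroblast markers were lower, 1 of 7 endothelial markers was lower, and of 10 macrophage markers 2 were lower and 1 higher, and their part in these values was not tested.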

How the data were processed

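Colonic RNA of 5 germ-free and 6 humanized mice was analysed, with groups and mouse numbers taken from the sample titles. The labels named no batch. The authors deposited 1 table of raw read counts per gene, made with the MAP-RSeq workflow. The submitters' processing notes name bcl2fastq 2.17.1.14, TopHat2 2.1.0, Bowtie2 2.2.3, featureCounts of Subread 1.4.6-p5 and the mm10 genome. The annotation release and the use of strand in counting are not given in the sources used here, and 3 genes listed by identifier without a symbol were tested like the others.

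The counts were tested with edgeR 4.0.16 and limma 3.58.1, run in R 4.3.3. Genes were kept by filterByExpr (minimum count 10, minimum total 15), normalized by TMM and compared with the exact test, Benjamini–Hochberg correction and FDR below 0.01. RPKM values used the coding length of the deposited table. Single-gene exact permutation tests used log2(CPM + 0.5). The scripts were tested on simulated data. The p-values set the difference between the groups against the spread between these mice, which edgeR models as a dispersion per gene. Median depth was 56718640 counts in germ-free and 43784996 in humanized mice.

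Members and lists were chosen with earlier results of these data known. Every member is accounted for: called members with RPKM by mouse, other tested members by role, untested members by the range of their counts, and of each pathway list the called genes. Where a sentence names another gene, it was chosen after its values were seen. Alternatives were the quasi-likelihood test, DESeq2 1.42.0, other normalizations, filters and thresholds, leaving out the 20 most abundant genes or single mice, and the replicate number as a block. Leaving out humanized mice 5 and 6 together, and the unblocked fit on the shared numbers, were added after seeing the data.

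Shared 101-base windows and exon overlaps were computed from GENCODE M21 transcripts, and upstream sequences were taken from RefSeq GRCm38.p6. Either may differ from the annotation the authors counted with. Upstream windows on chromosome 18 and of genes without an entry were not used.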

Additional observations from a re-analysis of the deposited data

Results flagged for a closer look

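Of 86 groups tested (each of the 43 tested members in germ-free and in humanized mice), 6 held 1 mouse whose RPKM lay apart from the rest of its group by Dixon's test at the 95% level, where chance alone gives about 1 in 20. In germ-free mice, mouse 1 was the highest for Aim2 (11.4 RPKM, next 9.96), for Naip6 (35.3 RPKM, next 29.7) and for Nlrc3 (0.521 RPKM, next 0.400). In humanized mice, mouse 2 was the lowest for Sigirr (13.8 RPKM, next 17.0), and mouse 3 was the highest for Nlrp1b (0.0836 RPKM, next 0.0346) and for Nlrc3 (0.698 RPKM, next 0.427). Aim2 was the only called gene among them.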

How the results depend on the processing

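Of 942 values of single members under the alternatives, 842 kept their direction and their side of the threshold, 45 lost the call, 16 gained one and 39 changed sign. No called member changed sign. Tlr2, Naip1, Cd14 and Pycard were called in every alternative at FDR below 0.01, and of these Tlr2 alone also had an LFC above 1. The quasi-likelihood test lost Aim2 (FDR = 0.014), Tlr1 (FDR = 0.0137) and Ticam1 (FDR = 0.0104). Members called higher and lower, 11 and 1 by the exact test with TMM, were 8 and 1 by the quasi-likelihood test, 13 and 1 by DESeq2, 5 and 7 with total counts, 4 and 6 with epithelial scaling, 14 and 2 at FDR below 0.05, and 1 and 0 when an absolute LFC above 1 was also required. Over the single mice left out they ranged from 8 to 12 and from 1 to 2, the 2 being Tlr4 and Nlrp1b without humanized mouse 3. Genes of the pathway lists, 17 higher and 5 lower, were 10 and 19 with total counts, 7 and 17 with epithelial scaling, 20 and 11 at FDR below 0.05, and 7 and 3 with the LFC limit. Their lower calls were 8 with upper-quartile scaling, 8 with at least 10 counts in every mouse and 13 without humanized mice 5 and 6, which was chosen after seeing the data. Over the single mice left out the pathway counts ranged from 13 to 18 and from 4 to 11, the 11 being without humanized mouse 5. Over all tested genes the split of 1827 higher and 1999 lower became 773 and 3609 with total counts and 565 and 3184 with epithelial scaling. The split over all tested genes with mice left out is not given here.

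Mouse numbers are shared by 5 pairs of mice, but the deviations of same-numbered mice correlated only between −0.133 and 0.091, and number 3 alone matched its own number best, so the numbers were not taken as pairs. With the number as a replicate block in the quasi-likelihood test, 5 members were higher and 0 lower, with 16 and 5 at an unadjusted p below 0.05. The calls lost with the block were Tlr4 (FDR = 0.0191), Nlrp6 (FDR = 0.0131), Naip2 (FDR = 0.0175), Tlr1 (FDR = 0.0277), Irak4 (FDR = 0.0301), Aim2 (FDR = 0.0421) and Ticam1 (FDR = 0.0619). The same 10 mice without the block, a fit added after seeing the data, gave 7 and 0, with 17 and 4 at an unadjusted p below 0.05, and also lost Tlr4 and Irak4. Pathway genes were 7 and 2 with the block and 11 and 4 without it, with 2 and 3 inflammasome partners and 4 and 5 feedback inhibitors higher, and 0 and 2 genes of the interleukin-1 receptor family lower. Of the signal relay genes, 0 were higher and 0 lower with the block, and 2 and 1 without it. Of the accessory and trafficking genes, 0 were higher and 1 lower in both fits. With the block the LFC of Tlr12 was −0.12, that of Tlr9 −0.27 and that of Tollip −0.0047.

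The members that changed sign were not called. Of the 39 sign changes 18 arose with total counts or epithelial scaling, and the other 21 in the other alternatives. The median LFC of all tested genes was −0.18 with total counts and −0.23 with epithelial scaling. The cause of the sign changes was not tested. With total counts the LFC was −0.0089 for Tlr6, −0.10 for Irak2, −0.12 for Nlrp10, −0.17 for Tollip, −0.050 for Tlr3, −0.087 for Tlr9, −0.068 for Nlrc3 and −0.14 for Irak1. With epithelial scaling it was −0.020 for Tlr12, −0.052 for Tlr6, −0.17 for Irak2, −0.18 for Nlrp10, −0.23 for Tollip, −0.10 for Tlr3, −0.10 for Tlr9, −0.048 for Naip5, −0.11 for Nlrc3 and −0.18 for Irak1. For Tollip it was −0.023 with upper-quartile scaling and −0.0067 with at least 10 counts in every mouse. Without humanized mice 5 and 6 it was −0.073 for Irak2, −0.074 for Tollip and 0.21 for Tlr8. Over the single mice left out, the LFC ranged from −0.014 to 0.15 for Irak2, from −0.17 to 0.23 for Nlrp10, from −0.049 to 0.052 for Tollip, from −0.32 to 0.30 for Tlr9, from −0.084 to 0.21 for Nlrc3 and from −0.35 to 0.075 for Tlr8.

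At this depth 13 members had too few reads to be tested.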
